A study of Mus musculus with 2 samples.

Results

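The 9 genes of 3 families were followed across the blood leukocytes of wild-type and APP/PS1 mice, namely the nuclear receptors Nr4a1, Nr4a2 and Nr4a3, the Krüppel-like factors Klf2, Klf4 and Klf6, and the RNA-binding proteins Zfp36, Zfp36l1 and Zfp36l2. They were chosen by name, with earlier results of these data known. All 9 were found among the 32285 genes counted, of which 17456 had a UMI in 3 or more kept cells. The measurements came from a WT and an APP/PS1 library of single cells. For each of these 2 libraries, blood of 3 females aged 7 months was pooled, red cells were lysed and neutrophils were enriched. Controls were C57BL/6J mice, and APP/PS1 is a transgenic model of Alzheimer's disease that overexpresses mutant human forms of APP and presenilin 1. Reads were aligned to the mouse genome, and the genotype was taken from the labels. With 1 library per genotype there was no replicate error and no test was run. Intervals are exact, at the 95% level, and cover counting error only. Reads of the same molecule were collapsed by unique molecular identifiers (UMIs), and a level is the UMIs of a gene in every 1000000 UMIs of a cell type in a library (CPM). These UMIs mark mostly the 3′ ends of transcripts and were not divided by length, so levels were compared within a gene and not between genes.

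The NR4A proteins are orphan nuclear receptors whose genes are switched on within minutes by calcium, cAMP and growth or antigen-receptor signals. Nr4a1 is required for nonclassical monocytes. The Krüppel-like factors are zinc finger proteins that bind GC-rich and CACCC sequences. Klf2 is known for quiescence and trafficking of lymphocytes and for restraint of myeloid activation, Klf4 for the differentiation of monocytes, and Klf6 for inflammatory gene expression in myeloid cells. The ZFP36 proteins bind AU-rich elements of mRNA, such as those of cytokines, and bring the deadenylase that starts their decay. Zfp36, also called tristetraprolin, is itself induced early by inflammatory signals, while Zfp36l1 and Zfp36l2 act in lymphocyte development and quiescence. Many of these genes are counted among the immediate early genes, whose mRNAs rise within minutes of a stimulus and decay as fast.

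The 5 promoters below were chosen from the ratios of APP/PS1 to WT in neutrophils. The promoters of the NR4A genes share a sequence element, whose part in the ratios was not tested. In neutrophils Nr4a1 had a log2 ratio of 0.22, Nr4a2 -0.69 and Nr4a3 -0.67. This difference in sign did not hold in every cell type. In classical monocytes the ratios were all below 0, at -0.18, -0.43 and -1.74. Zfp36 and Klf2 had the largest positive ratios of the members in neutrophils. Each is the 250 bases before the RefSeq start on GRCm38.p6, the assembly also called mm10. Capitals mark TGACG, the core of the cAMP response element, on either strand (CGTCA on the printed strand), the MEF2 box, and the CArG box of serum response elements.
Nr4a1, chr15:101266596-101266845, plus strand: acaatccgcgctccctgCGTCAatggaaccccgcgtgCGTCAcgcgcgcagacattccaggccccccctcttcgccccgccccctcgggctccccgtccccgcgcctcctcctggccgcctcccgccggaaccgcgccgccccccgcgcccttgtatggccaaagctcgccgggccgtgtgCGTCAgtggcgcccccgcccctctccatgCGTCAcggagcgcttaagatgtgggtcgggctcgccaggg
Nr4a2, chr2:57124004-57124253, minus strand: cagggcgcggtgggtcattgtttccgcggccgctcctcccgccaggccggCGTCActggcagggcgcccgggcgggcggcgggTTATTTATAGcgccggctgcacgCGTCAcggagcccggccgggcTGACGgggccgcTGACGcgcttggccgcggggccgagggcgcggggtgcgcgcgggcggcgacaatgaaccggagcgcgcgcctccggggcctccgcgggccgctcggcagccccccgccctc
Nr4a3, chr4:48045055-48045304, plus strand: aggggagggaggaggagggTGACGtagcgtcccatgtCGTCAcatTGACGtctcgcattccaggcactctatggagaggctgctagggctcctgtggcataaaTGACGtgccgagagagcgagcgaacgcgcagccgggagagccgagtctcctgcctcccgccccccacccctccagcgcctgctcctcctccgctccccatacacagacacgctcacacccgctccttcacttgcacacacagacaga
Klf2, chr8:72318812-72319061, plus strand: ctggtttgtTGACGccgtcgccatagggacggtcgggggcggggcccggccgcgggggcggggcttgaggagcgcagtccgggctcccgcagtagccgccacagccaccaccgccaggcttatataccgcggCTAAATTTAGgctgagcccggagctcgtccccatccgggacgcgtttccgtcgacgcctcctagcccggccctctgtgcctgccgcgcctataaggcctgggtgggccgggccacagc
Zfp36, chr7:28379229-28379478, minus strand: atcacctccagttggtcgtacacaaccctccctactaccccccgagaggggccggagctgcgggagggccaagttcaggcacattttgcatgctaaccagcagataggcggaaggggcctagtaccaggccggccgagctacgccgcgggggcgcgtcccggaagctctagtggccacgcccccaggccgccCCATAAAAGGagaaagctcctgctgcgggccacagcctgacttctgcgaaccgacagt
The windows of Nr4a1, Nr4a2 and Nr4a3 each held TGACG 4 times, and those of Klf2 and Klf4 held it 1 time each. Over all 32851 promoters of this length, 17.8% held TGACG at least 1 time on either strand. A MEF2 box stood in the windows of Klf2 and Nr4a2 and in 1.69% of all promoters. The CArG box stood in the window of Zfp36 only among the 8 members with a window, and in 1.47% of all promoters. The window of Zfp36 held no TGACG. The full element TGACGTCA and the NR4A response element AAAGGTCA were in none of the 8 windows. GGGCGG, a GC box, was in 7 of the 8 windows and in 32.7% of all promoters. These are matches of letters, and no binding was measured here. The MEF2 box of Nr4a2 overlaps a TATAAA, which 12.4% of all promoters held. The GENCODE spans given next for Nr4a1, Nr4a3, Klf2 and Zfp36 begin upstream of the RefSeq start, so their windows lie partly or wholly within the annotated gene.

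In GENCODE M21 on GRCm38 the 9 genes lie on 8 chromosomes, with Nr4a3 and Klf4 both on chromosome 4. Nr4a1 lies at chr15:101254269-101274795, Nr4a2 at chr2:57106830-57124003 and Nr4a3 at chr4:48045153-48086447. Klf2 lies at chr8:72319033-72321656, Klf4 at chr4:55527143-55532466 and Klf6 at chr13:5861482-5870394. Zfp36 lies at chr7:28376784-28380253, Zfp36l1 at chr12:80107754-80113013 and Zfp36l2 at chr17:84183931-84187947. Each ZFP36 gene is overlapped on the other strand by an annotated transcript (Gm44710, Gm26669 and AC132455.1), and none of the 9 is overlapped by another gene on its own strand.

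The WT library held 17123 cells with a median of 3345 UMIs and the APP/PS1 library 17645 cells with a median of 3115 UMIs, and 83 barcodes occurred in both. After the filters 14564 WT and 15208 APP/PS1 cells were kept. They were clustered without the 9 genes and other immediate early genes, and clusters were named by marker genes as neutrophil-like, monocyte-like and so on, written below without the ending. Neutrophil clusters made up 52.1% of kept WT cells and 62.8% of kept APP/PS1 cells, so the labelled cell type was the main but not the sole one. The 13 cell types described held between 43 and 8035 cells per library, and the 12 with at least 50 cells in each library were compared between genotypes. A cluster led by H2-Ab1, H2-Aa and Cd74 scored close on the markers of dendritic cells and of nonclassical monocytes, was given neither name, and is called the MHC class II-high cluster. The neutrophil markers S100a8 and S100a9 were also counted in the other cell types. Together they reached between 1.87% and 12.0% of their neutrophil level in monocytes, dendritic cells and lymphocytes. In erythroid cells they reached 24.6% in WT and 37.1% in APP/PS1. These shares were used as the level of neutrophil RNA, which is an upper limit where a type makes S100a8 or S100a9 itself.

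Nr4a1 was highest in nonclassical monocytes in both libraries, at 1870 CPM (1844 to 1897) in the WT library and 2026 CPM (1992 to 2062) in APP/PS1. The MHC class II-high cluster followed with 1446 and 1213 CPM and classical monocytes with 679 and 599 CPM, and the intervals of these neighbours did not overlap in either library. Dendritic cells had 454 CPM in the WT library and 424 CPM in APP/PS1 and neutrophils 338 and 394 CPM. From dendritic cells downwards the intervals of neighbouring types overlapped, except between NK and CD8 T cells. CD8 T cells were lowest, with 103 CPM in the WT library and 80.5 CPM in APP/PS1, and NK cells had 143 and 138 CPM. Nr4a1 was detected in 99.1% of WT and 99.3% of APP/PS1 nonclassical monocytes, at a median of 4114.5 and 4335 UMIs per cell, and in 25.6% and 20.8% of CD8 T cells, at 3782 and 3311 UMIs. After each cell was thinned to 1000 UMIs these shares were 81.5% and 83.2% in nonclassical monocytes and 8.0% and 8.2% in CD8 T cells. Neutrophil RNA at the level of S100a8 and S100a9 would by itself give 31.9% of the Nr4a1 level of WT CD8 T cells and 53.3% of that of APP/PS1 CD8 T cells, but under 1% of that of nonclassical monocytes.

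Nr4a2 and Nr4a3 were sparse in all types. Nr4a2 was highest in NK cells, with 109 CPM in the WT library and 88.1 CPM in APP/PS1, and in dendritic cells, with 94.5 and 82.5 CPM, and these neighbours overlapped. Classical monocytes had 48.5 and 35.9 CPM, and neutrophils 17.4 and 10.8 CPM. Nr4a3 was highest in NK cells, at 34.9 CPM in the WT library and 35.0 CPM in APP/PS1, and was under 20 CPM in the other 12 types in both libraries. It was detected in 8.3% of WT and 8.5% of APP/PS1 NK cells and in 1.0% and 0.7% of nonclassical monocytes. All neighbours in the order of Nr4a3 overlapped. Nr4a2 and Nr4a3 thus shared NK cells as their leading type, and Nr4a1 did not. Across the 24 profiles of cell type and library Pearson's r was 0.51 for Nr4a2 with Nr4a3, 0.19 for Nr4a1 with Nr4a2 and -0.39 for Nr4a1 with Nr4a3. These r values describe log2(CPM + 1) over profiles that share libraries.

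Klf4 was the most restricted of the Krüppel-like members. It stood at 1048 CPM in the WT library and 1153 CPM in APP/PS1 nonclassical monocytes, at 813 and 869 CPM in the MHC class II-high cluster, at 376 and 609 CPM in dendritic cells and at 419 and 514 CPM in classical monocytes. Neutrophils had 13.4 and 12.9 CPM and NK cells 14.4 and 17.0 CPM. Klf4 was detected in 92.3% of WT and 94.8% of APP/PS1 nonclassical monocytes, against 3.4% and 3.5% of neutrophils, whose median depth was 2518 and 2640 UMIs. In thinned cells the shares were 58.6% and 62.6% against 1.3% and 1.3%. Gamma-delta and innate-like T cells and B cells lay between, at 150 and 93.1 CPM and at 99.1 and 81.7 CPM.

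Klf2 and Klf6 were broad. Klf2 was highest in B cells (2673 CPM in the WT library and 3311 CPM in APP/PS1), NK cells (2534 and 3080 CPM) and neutrophils (2345 and 3257 CPM), and the intervals of these 3 types were not apart in both libraries. The lowest types were dendritic cells (557 and 811 CPM) in WT and basophils (956 and 745 CPM) in APP/PS1. Klf2 was detected in over 90% of cells of 11 of the 13 types in both libraries, with the exceptions of basophils and erythroid cells. Klf6 was highest in basophils (1427 and 1614 CPM), followed by CD8 T cells (1035 and 1316 CPM) and neutrophils (970 and 1310 CPM), which overlapped. Among the 36 pairs of members, Klf2 and Klf6 had the highest r over the 24 profiles, at 0.84.

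The 3 ZFP36 genes each had another highest type by the mean of the 2 libraries, although for Zfp36l1 and Zfp36l2 the leading types overlapped. Zfp36 was highest in basophils, with 2559 CPM in the WT library and 4134 CPM in APP/PS1, followed by neutrophils with 1771 and 3022 CPM, neutrophils with platelet genes with 1612 and 2697 CPM and nonclassical monocytes with 1317 and 1738 CPM. CD8 T cells (244 and 410 CPM) were lowest in WT and B cells (358 and 391 CPM) in APP/PS1. Zfp36 was detected in 95.9% of WT and 98.8% of APP/PS1 neutrophils, in all of the 72 and 43 basophils, and in 42.2% and 45.8% of CD8 T cells. Neutrophil RNA would give 70.4% of the Zfp36 level of WT CD8 T cells and 80.4% of that of APP/PS1 CD8 T cells. It would give 62.7% and 72.0% of those of NK cells, and the origin of these Zfp36 UMIs was not tested. Zfp36l1 was highest in B cells (534 and 542 CPM), gamma-delta and innate-like T cells (500 and 477 CPM) and nonclassical monocytes (509 and 435 CPM), and these overlapped. It was low in classical monocytes, at 76.9 and 57.1 CPM, although nonclassical monocytes were among the highest. Zfp36l2 was highest in NK cells (1452 and 1094 CPM) and dendritic cells (1282 and 1126 CPM), whose intervals were not apart in both libraries, and lowest in erythroid cells and immature neutrophils. Over the 24 profiles, r was 0.011 for Zfp36 with Zfp36l1 and -0.0031 for Zfp36 with Zfp36l2.

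**Figure D1:**
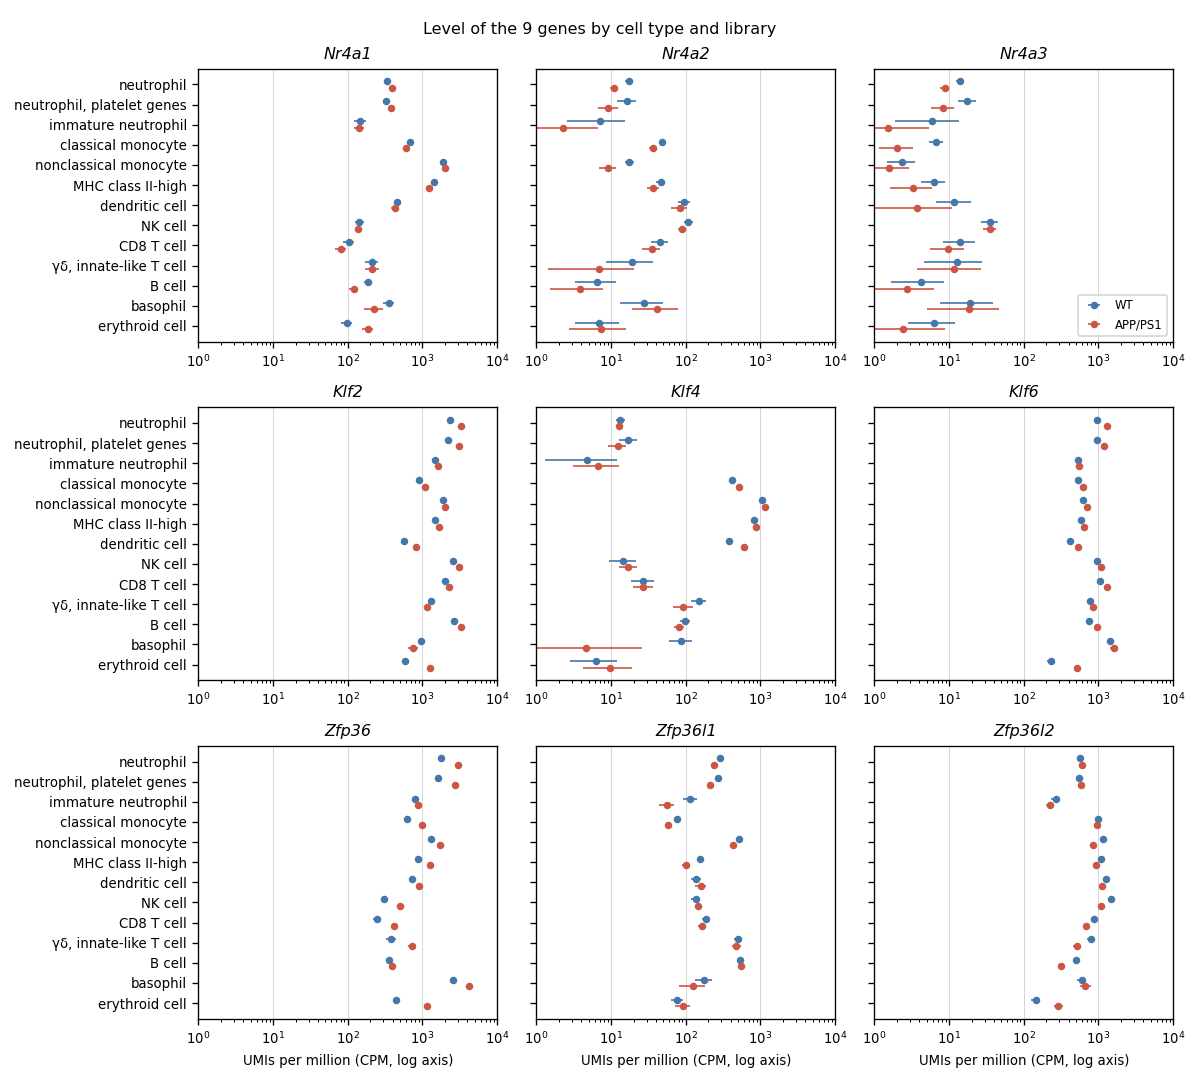
Level of each gene (CPM, log axis) in 13 cell types of the WT library (blue) and the APP/PS1 library (red), with exact 95% Poisson intervals. Nr4a1 and Klf4 stand highest in nonclassical monocytes, Zfp36 in basophils and neutrophils and Zfp36l1 in B cells, gamma-delta and innate-like T cells and nonclassical monocytes.

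Between genotypes, 94 pairs of member and cell type had at least 50 UMIs over both libraries and were compared, and the other 14 pairs were not. A ratio is given as log2 of APP/PS1 over WT, and 0.5 or more in either direction is called past the fold. Of the 94 ratios, 14 were past it upwards, 12 were past it downwards and 68 were within it. Of the 14 upwards, 5 were in erythroid cells, where 57.3% of all genes were past the fold upwards. In the other 11 types between 3.12% and 9.2% of all genes were past it upwards, and over all 12 types between 2.35% and 9.15% downwards. Zfp36 was above 0 in all 12 types and Klf6 in all 12, Klf2 in 11 of 12, while Nr4a2 was below 0 in all 8 types where it was compared. Zfp36l2 was below 0 in 9 of 12, Zfp36l1 in 8 and Nr4a1 in 7, Klf4 in 4 of 10 and Nr4a3 in 3 of 4. These are signs only, given without the share of all genes with the same sign in every type. The types are not separate observations, since neutrophil RNA was also counted in the other types. Some intervals held 0, such as those of Klf6 (-0.15 to 0.20) and Zfp36 (-0.01 to 0.27) in immature neutrophils and of Zfp36 in B cells (-0.03 to 0.29).

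Neutrophils, the cells the study was about, had a higher Zfp36 level and lower Nr4a2 and Nr4a3 levels in the APP/PS1 library. Zfp36 went from 1771 CPM (31671 UMIs) in WT to 3022 CPM (71621 UMIs) in APP/PS1, a log2 ratio of 0.77 (0.75 to 0.79), which was above those of 98.03% of the 9066 genes compared in neutrophils. Klf2 stood at 2345 and 3257 CPM with a ratio of 0.47 (0.46 to 0.49), and Klf6 at 970 and 1310 CPM with 0.43 (0.41 to 0.46), both just within the fold. Zfp36 was thus the member past the fold upwards, where 6.57% of all genes were. Nr4a2 had 17.4 and 10.8 CPM with a ratio of -0.69 (-0.93 to -0.44), and Nr4a3 13.9 and 8.73 CPM with -0.67 (-0.95 to -0.40). These were the 2 members past the fold downwards, where 4.9% of all genes were, with 11.5% in either direction. They rested on 312 and 257 UMIs for Nr4a2 and 249 and 207 UMIs for Nr4a3. The median over all genes was 0.05 and over the 9 members 0.10. Among genes past the fold in neutrophils 57.3% were higher in APP/PS1, and 46.6% when libraries were scaled without mitochondrial, ribosomal protein, haemoglobin, S100a8 and S100a9 UMIs.

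The other members in neutrophils were within the fold. Nr4a1 had 338 CPM in the WT library and 394 CPM in APP/PS1, a ratio of 0.22 (0.17 to 0.27), opposite in sign to Nr4a2 and Nr4a3. Klf4 had a ratio of -0.05 (-0.30 to 0.20). Of the relatives of Zfp36, Zfp36l1 had the opposite sign and Zfp36l2 the same sign with a smaller ratio. Zfp36l1 stood at 291 and 239 CPM with a ratio of -0.28 (-0.34 to -0.23), and Zfp36l2 at 561 and 600 CPM with 0.10 (0.06 to 0.13).

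The whole distribution of Zfp36 UMIs over neutrophils lay higher in the APP/PS1 library. In neutrophils thinned to 1000 UMIs the mean was 1.84 Zfp36 UMIs per cell in WT and 3.07 in APP/PS1, and the median was 2 and 3. Cells with no Zfp36 UMI made up 21.7% in WT and 9.90% in APP/PS1, and cells with 6 or more made up 3.29% and 14.2%. For Klf2 the mean was 2.37 and 3.30 UMIs, and cells with 6 or more made up 8.43% and 18.8%. For Zfp36l1 the cells with no UMI made up 80.0% in WT and 83.0% in APP/PS1.

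**Figure D2:**
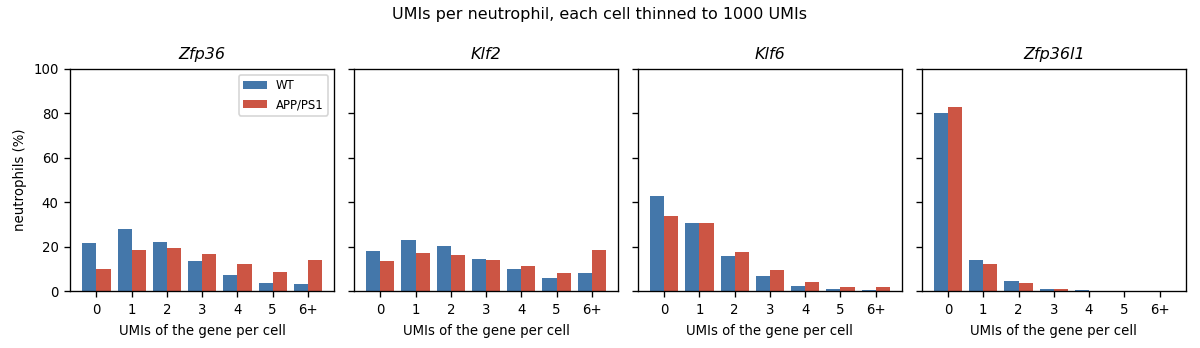
Share of neutrophils (percent) by the number of UMIs of Zfp36, Klf2, Klf6 and Zfp36l1 after each cell was thinned to 1000 UMIs, in 6379 WT cells (blue) and 8033 APP/PS1 cells (red). For Zfp36 the APP/PS1 bars are lower at 0 and 1 UMI and higher from 3 UMIs upwards.

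The neutrophils fell into 7 clusters, of which cluster 0 was led by Retnlg, cluster 1 by Stfa2l1, cluster 3 by the interferon-induced Ifit1, cluster 4 by Csf1, Il1b and Egr1, cluster 7 by Cstdc4 and Slfn4, cluster 6 by the platelet gene Ppbp and cluster 14 by the granule genes Camp, Ngp and Ltf of immature neutrophils. Cluster 14 had the lowest level of all 9 members in both libraries, although those of Nr4a2, Nr4a3 and Klf4 rested on at most 9 UMIs there, with 790 CPM of Zfp36 in WT and 866 CPM in APP/PS1. Cluster 4 had the highest Zfp36 level in both, with 2022 and 3406 CPM, and the highest Nr4a1 level, with 509 and 582 CPM against 261 and 274 CPM in cluster 0. Clusters were formed from the same cells, so these levels are given as a description.

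The Zfp36 ratio was 0.66 to 0.83 in the 6 clusters other than cluster 14, each interval lying above the fold, and 0.13 (-0.01 to 0.27) in cluster 14. The higher Zfp36 level was thus present within each of these 6 clusters. Klf2 had ratios between 0.35 (cluster 0) and 0.60 (cluster 4) in the same 6 clusters and 0.13 (0.03 to 0.23) in cluster 14. In cluster 14 Nr4a2 and Nr4a3 had under 50 UMIs over both libraries and were not compared. In the other 6 clusters, Nr4a2 had a ratio of 0.39 (-0.30 to 1.11) in cluster 4, where 12.0 and 15.8 CPM were counted, and ratios below 0 in 5, with intervals below 0. Nr4a3 had ratios below 0 in all 6, and the intervals of clusters 4 (-1.10 to 0.31) and 7 (-1.28 to 0.15) held 0. Zfp36l1 was -0.01 (-0.16 to 0.14) in cluster 4 and -1.04 (-1.50 to -0.59) in cluster 14, which rested on 97 UMIs from 157 cells and 74 UMIs from 205 cells. In neutrophils with platelet genes, which are cluster 6, Zfp36 was past the fold upwards (6.66% of all genes) and Nr4a2 and Nr4a3 downwards (4.81%, with 11.5% in either direction). In immature neutrophils Zfp36l1 alone was past the fold, downwards, where 9.15% of all genes were, with 7.41% upwards and 16.6% in either direction. This ratio was 0.17 without the percentile limits on cells and -0.19 without anchors.

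**Figure D3:**
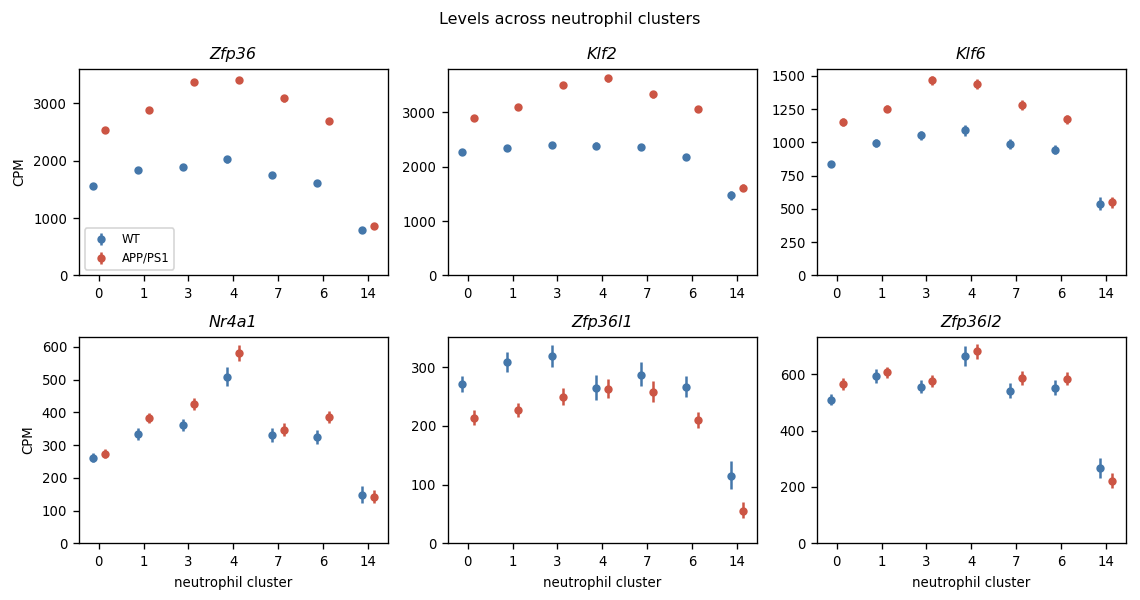
Level (CPM) of 6 members in the 7 neutrophil clusters of the WT library (blue) and the APP/PS1 library (red), with exact 95% Poisson intervals. Cluster 14, the immature neutrophils, is lowest for each gene, and the Zfp36 points of the libraries lie apart in the other 6 clusters.

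Other gene lists were set beside these ratios in neutrophils, where 6.57% of all genes were past the fold upwards and 4.9% downwards. Some of them moved and others did not. Of 17 immediate early genes, 16 were measured, 6 were past the fold upwards and none downwards, with a median of 0.47. Egr2 had a ratio of 0.87, Jun 0.84, Egr1 0.70, Fos 0.64, Btg2 0.54 and Ier2 0.52, while Fosl2 had -0.48 and Csrnp1 -0.18. Of 9 heat shock genes 7 were measured and none was past the fold, with a median of 0.04. Platelet markers were past the fold upwards in 5 of 8, with a summed level of 468 CPM in the WT library and 575 CPM in APP/PS1, and Pf4, the most abundant of them, had a ratio of 0.14. Erythroid markers summed to 1682 and 1027 CPM and nonclassical monocyte markers to 78.2 and 61.5 CPM. The part of these genes and cells in the member ratios was not tested. The Zfp36 ratio was 0.74 in the neutrophils with platelet genes. Of the 39 genes within 1 Mb of Zfp36 that were compared in neutrophils, 1 was past the fold upwards and 1 downwards, with a median of 0.04.

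Genes that act with the 3 families were mostly within the fold in neutrophils, and so were genes at large. Of all 9066 genes compared there, 6.57% were past it upwards, 4.9% downwards and 11.5% in either direction. Klf2, Klf4 and Klf6 have relatives that were counted as well. Of 14 other Krüppel-like factors 8 were measured in neutrophils and none was past the fold, with a median of -0.14. Klf3, a repressor of the family, had the lowest ratio, 507 CPM in the WT library and 362 CPM in APP/PS1 (-0.48, -0.53 to -0.44), and Klf13 the highest, at 0.25. Of 23 mRNA decay and AU-rich element binding proteins all were measured and none was past the fold, with a median of 0.08, Cnot8 at 0.40, a deadenylase subunit, and Tob1 at -0.41. Of 14 mRNAs with AU-rich elements 8 were measured. Cxcl2, a neutrophil chemoattractant, was past the fold downwards, from 4210 CPM to 2877 CPM (-0.55), and Ccl3 was highest at 0.35. Il1b had a ratio of 0.02, Ptgs2 0.09 and Tnf -0.24. Of 11 upstream regulators, such as Mef2d at -0.30 and Srf at 0.19, none was past the fold. Of 7 genes induced by glucocorticoids, Per1 and Ddit4 were past it downwards, at -0.78 and -0.63. However, 5 of the 7 had ratios above 0, and the median of the 7 was 0.02. Of 5 target genes of KLF2, 3 were measured, and Thbd was past the fold downwards, from 17.4 CPM to 10.5 CPM. Of the NR4A partner receptors Rxra and Rxrb were measured, at -0.17 and 0.04.

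In classical monocytes Zfp36 was past the fold upwards, and in both monocyte types Zfp36l1 had ratios below 0. Classical monocytes had 625 CPM of Zfp36 in WT and 983 CPM in APP/PS1, a ratio of 0.65 (0.61 to 0.70) in the direction where 3.22% of all genes were past the fold. Neutrophil RNA would give 8.29% of the WT level, and the ratio was 0.66 after that level was subtracted. Nr4a3 was past the fold downwards in classical monocytes, where 4.88% of all genes were (8.1% in either direction), but rested on 83 and 16 UMIs (-1.74, -2.61 to -0.96). Of 17 immediate early genes measured there, 4 were past the fold upwards and 5 downwards, Jun at 1.53, Fos at 0.60 and Egr1 at -1.38, with a median of -0.15.

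Nonclassical monocytes had 1317 CPM of Zfp36 in WT and 1738 CPM in APP/PS1, a ratio of 0.40 (0.36 to 0.44) within the fold. Nr4a2 was past it downwards, with 17.6 and 9.09 CPM (-0.95, -1.41 to -0.52), where 4.42% of all genes were past the fold downwards, 3.32% upwards and 7.73% in either direction. Nr4a1, the factor these cells depend on, differed little, with 1870 and 2026 CPM and a ratio of 0.12 (0.08 to 0.15). Zfp36l2 had 1167 CPM in the WT library and 850 CPM in APP/PS1 (-0.46, -0.50 to -0.41) and Zfp36l1 509 and 435 CPM (-0.23, -0.29 to -0.16). In these cells 7 immediate early genes were past the fold upwards and 1 downwards, and 3 of 8 measured heat shock genes were past it upwards, with a median of 0.45. The MHC class II-high cluster had Zfp36 past the fold upwards, at 863 and 1261 CPM (0.55, 0.48 to 0.61), and Zfp36l1 downwards, at 155 and 100 CPM (-0.63, -0.82 to -0.44), where 3.12% and 6.32% of all genes were (9.44% in either direction). Its Zfp36 ratio was 0.40 in thinned cells, and it was followed in 1 clustering only. In dendritic cells Klf4 (376 and 609 CPM, 0.70, 0.51 to 0.88) and Klf2 (557 and 811 CPM, 0.54, 0.39 to 0.70) were past the fold upwards, where 6.3% of all genes were, with 8.91% downwards and 15.2% in either direction. These cells numbered 140 and 94, and neither gene stayed past the fold without the percentile limits on cells (0.18 and 0.17) or without anchors between the libraries (0.21 and 0.24). In those clusterings the cluster named dendritic was led by H2-Ab1 and held 660 and 712 WT cells, so it was no longer the same population.

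**Figure D4:**
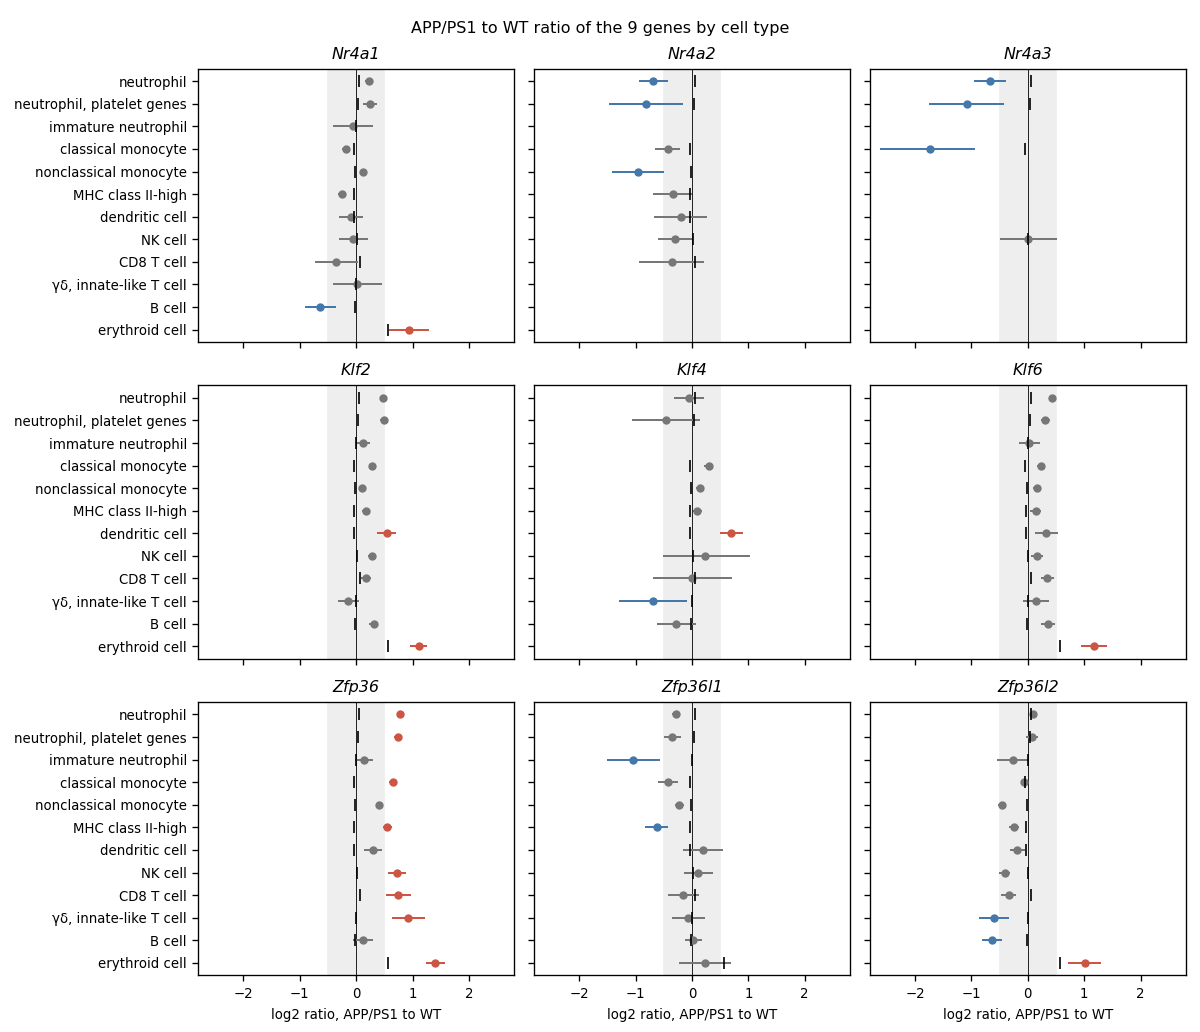
Log2 ratio of APP/PS1 to WT for each gene in the cell types with at least 50 UMIs of it, with exact 95% intervals, red where 0.5 or more above 0 and blue where 0.5 or more below. The grey band is the range within the fold and the black tick the median of all genes of that type, which is 0.57 in erythroid cells. Zfp36 and Klf6 lie above 0 in all 12 types and Nr4a2 below 0 in all 8 where it was compared. These are signs only, and the types are not separate observations. Neutrophil RNA would give 72.0% of the APP/PS1 Zfp36 level in NK cells and 97.0% in erythroid cells.

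Zfp36 in lymphocytes and erythroid cells stood closer to the level that neutrophil RNA would give than in monocytes. It was past the fold upwards in NK cells (306 and 505 CPM, 0.72), where 5.93% of all genes were and 3.93% were downwards (9.85% in either direction), and in CD8 T cells (244 and 410 CPM, 0.75), where 9.2% and 5.98% were (15.2% in either direction). After the neutrophil level was subtracted, the ratio in NK cells was 0.31, and in CD8 T cells under 25% of the APP/PS1 level was left and no ratio was formed. In NK cells it was 0.42 with called doublets removed and 0.16 without the percentile limits on cells. In gamma-delta and innate-like T cells Zfp36 was past the fold upwards (377 and 714 CPM, 0.92), where 7.76% of all genes were, and 0.77 after subtraction. Klf4 and Zfp36l2 were past it downwards there, where 7.8% were (15.6% in either direction), in 90 and 75 cells. With called doublets removed Klf4 was 0.29 and Zfp36l2 -0.47, so that neither was past the fold.

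Zfp36l2 was lower in the APP/PS1 library in all 4 lymphocyte types. It was not particular to them, as its ratio was below 0 in 9 of 12 types and -0.46 in nonclassical monocytes. NK cells had 1452 and 1094 CPM (-0.41, -0.49 to -0.33), CD8 T cells 866 and 684 CPM (-0.34, -0.46 to -0.22), gamma-delta and innate-like T cells 784 and 516 CPM (-0.60, -0.85 to -0.36) and B cells 494 and 317 CPM (-0.64, -0.79 to -0.48). Neutrophil RNA would give between 3.72% and 9.57% of these levels, and the 4 ratios lay between -0.68 and -0.39 after subtraction. In B cells Nr4a1 was also past the fold downwards (187 and 121 CPM, -0.64), where 8.89% of all genes were, with 5.57% upwards and 14.5% in either direction. This ratio was 0.025 in thinned cells and -0.45 with called doublets removed. Markers of other cells were lower in the APP/PS1 B cells as well. Erythroid markers summed to 12855 CPM in the WT library and 3318 CPM in APP/PS1, classical monocyte markers to 319 and 142 CPM with 7 of 7 measured past the fold downwards, and neutrophil markers to 12672 and 6950 CPM. Their part in the ratios of B cells was not tested. The B cell markers themselves summed to 9945 and 10330 CPM.

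Erythroid cells had 5 of 6 compared members past the fold upwards, Zfp36 from 437 to 1156 CPM, Klf6 from 232 to 522 CPM, Klf2 from 584 to 1261 CPM, Zfp36l2 from 144 to 291 CPM and Nr4a1 from 96.5 to 185 CPM. In this type 57.3% of all genes were past it upwards, 2.35% downwards and 59.7% in either direction, and the median of all genes was 0.57. Without the percentile limits on cells Klf6 was -0.11, Zfp36l2 -0.34 and Nr4a1 0.13, and with TMM factors Zfp36l2 was 0.45 and Nr4a1 0.38. At a resolution of 0.4 Zfp36l2 was -0.076 and Nr4a1 0.24. Neutrophil RNA would give 99.7% of the Zfp36 level in WT and 97.0% in APP/PS1, 98.8% and 95.8% of Klf2, and 103% and 93.1% of Klf6. Scrublet called 38.6% of the WT and 45.3% of the APP/PS1 erythroid cells doublets.

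**Figure D5:**
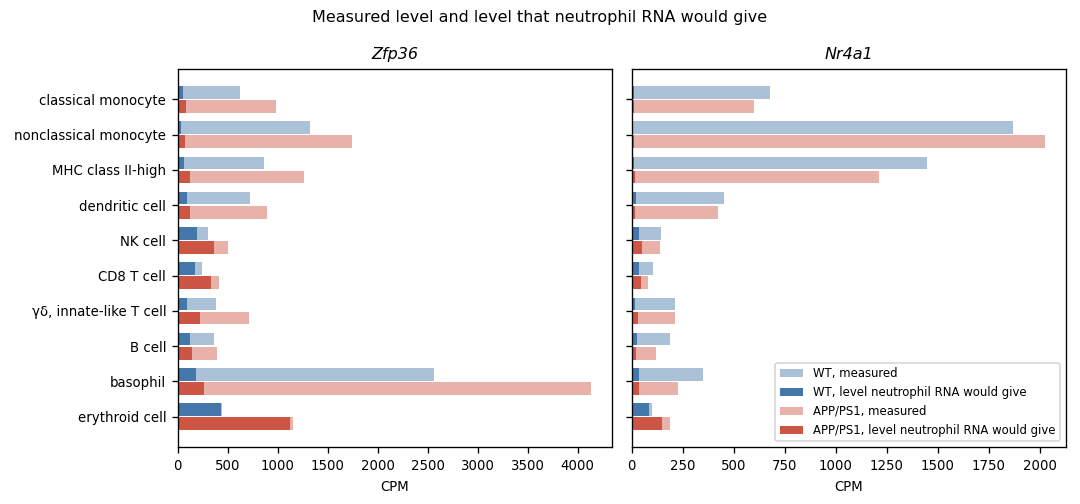
Measured level (CPM, light bars) of Zfp36 and Nr4a1 in the cell types other than neutrophils and the level that neutrophil RNA would give (dark bars), from the S100a8 and S100a9 UMIs of each type, in WT (blue) and APP/PS1 (red). The dark bars nearly fill the light ones for Zfp36 in erythroid cells and fill most of them in NK and CD8 T cells, and are short in monocytes.

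The genes whose pattern over the 24 profiles was most like that of a member were, for Nr4a1, Csf1r (r = 0.97), Krt80 and Clec4a3. For Klf4 they were Scarb1, Nectin1 and Rasa4, each with r = 0.96. For Klf2 they were Malat1 (r = 0.96), a nuclear noncoding RNA, E130102H24Rik and Atf7ip, and for Klf6 they were 5031425E22Rik (r = 0.93), Kmt2c and Miip. For Zfp36 they were Cks2 (r = 0.93), Marcks and Myd88, for Zfp36l1 Tgfbr2 (r = 0.81), Strbp and Ly6a, and for Zfp36l2 Lman2 (r = 0.92), Runx1 and Mprip. For Nr4a2 they were Padi2 (r = 0.89), 1700025G04Rik and Zfp36l2 itself, at r = 0.83, and for Nr4a3 Peak1 (r = 0.86), D16Ertd472e and Itpkb. The search covered 7247 genes, and the profiles share libraries and depth.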

How the data were processed

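The deposited counts are whole UMIs per gene and cell for 2 libraries, 1 of each genotype. The authors made them with Cell Ranger 5.0.0 and mm10 and deposited them with no normalization. No column held another sample. Following the methods of the study, a cell was kept if its genes and its UMIs both lay between percentiles 5 and 95 within its library and its mitochondrial share was at most 10%. Genes needed 3 cells. Kept cells were log-normalized to 10000 UMIs and clustered with CCA anchors between libraries on 2000 variable features per library, less the members and immediate early genes, and 15 principal components at a resolution of 0.8 (R 4.3.3, Seurat 5.3.0, Matrix 1.6.5, the R package data.table, version 1.17.8, Python 3.11.15, scanpy 1.11.5, scipy 1.17.1, numpy 2.4.6, pandas 2.3.3, matplotlib 3.10.9).

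The 9 members and the gene lists were chosen with earlier results of these data known. The rule that turns markers into names was written after clusters had been seen. A name needed a mean marker log2 ratio of at least 0.5 and a margin of 0.5 over the next list, and clusters with over 50% called doublets were left unnamed. They and other unnamed or small clusters, with 1107 WT and 941 APP/PS1 cells, were not described. Scrublet called 9.37% of WT and 7.76% of APP/PS1 cells doublets at the WT threshold of 0.210, used for both because the automatic threshold of 0.725 called 0 in APP/PS1, and called doublets were removed only as an alternative.

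UMIs were summed per library and cell type. Levels have exact Poisson intervals, shares exact Clopper-Pearson intervals and ratios exact conditional intervals. All of these cover counting error only. The ratio intervals were tested on simulated Poisson counts, which hold counting error and no other variation. PCR copies were collapsed by UMIs. A level of 0 would allow up to 3 UMIs, which is 0.168 CPM in neutrophils of WT and 0.127 CPM in those of APP/PS1 and 8.17 CPM and 13.8 CPM in basophils. Thinning to 1000 UMIs left out 2 APP/PS1 neutrophils and 1 APP/PS1 NK cell. All 9 members were named. List genes were named as the up to 2 highest and 2 lowest ratios per list, with others where a member needed them, and 3 like genes were named per member among genes with at least 200 UMIs. Egr1, Fos, Btg2, Ier2, Il1b and Pf4 were named after their values were seen.

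Neutrophil RNA in another cell type was taken as its S100a8 and S100a9 CPM over that of neutrophils, times the neutrophil level of a member. It is an upper limit where a type makes S100a8 or S100a9 itself. A ratio after subtraction was formed where at least 25% of each level was left. Of 32285 gene IDs 32158 were found in GENCODE M21, and RefSeq promoters were matched for 8 of 9 members. Motifs were searched on both strands. Alternatives were other cell filters, doublet removal, no anchors, a resolution of 0.4, thinned cells, TMM factors of edgeR 4.0.16, median-of-ratios factors, scaling without abundant classes, the mean over cells, other minimums of UMIs, and subtraction of neutrophil RNA.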

Additional observations from a re-analysis of the deposited data

Results flagged for a closer look

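For 3 members the APP/PS1 to WT ratio was past the fold in opposite directions in different cell types. The share of all genes with such opposite calls was not counted. In erythroid cells, which gave the upward calls of Nr4a1 and Zfp36l2, 57.3% of all genes were past the fold upwards. No difference between types was tested, since each type has 1 library per genotype. Nr4a1 had a log2 ratio of 0.94 in erythroid cells and -0.64 in B cells, the latter 0.025 in thinned cells. Zfp36l2 had 1.01 in erythroid cells and -0.64 in B cells, the former -0.34 without the percentile limits on cells and -0.076 at a resolution of 0.4. The median of all genes in erythroid cells was 0.57. Neutrophil RNA would give 79.1% of the APP/PS1 Nr4a1 level of erythroid cells, and the summed neutrophil markers of B cells were 12672 CPM in WT cells and 6950 CPM in those of APP/PS1. Klf4 had 0.70 in dendritic cells, on 477 and 487 UMIs, and -0.69 in gamma-delta and innate-like T cells, on 71 and 40 UMIs. The former was 0.18 without the percentile limits and 0.21 without anchors, and the latter 0.29 with called doublets removed, so for each of these 3 members at least 1 of the opposite calls did not hold under every alternative.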

How the results depend on the processing

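Of the 26 ratios past the fold, 14 stayed past it under every alternative that gave a value, and 21 kept their sign. The 14 include Zfp36 in CD8 T and erythroid cells, where no ratio was formed after subtraction. They also include Nr4a3 in classical monocytes, which rested on 83 and 16 UMIs and was not compared at the minimum of 200 UMIs. Of the 68 within the fold, 10 passed it under some alternative. Zfp36 in neutrophils lay between 0.72 and 0.79, Nr4a2 between -0.74 and -0.54 and Nr4a3 between -0.75 and -0.61 under all alternatives. Of 876 alternative values of single ratios, 757 stayed within the counting interval, 113 moved beyond it and 6 turned. Nr4a1 in B cells was 0.025 when thinned. Without percentile limits, Zfp36l1 in immature neutrophils was 0.17, and in erythroid cells Klf6 was -0.11 and Zfp36l2 -0.34. Zfp36l2 in erythroid cells was -0.076 at a resolution of 0.4, and Klf4 in gamma-delta and innate-like T cells was 0.29 with doublets removed. The cause was not tested.

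The number of members past the fold moved by over 1.5 times as follows. In erythroid cells the 5 higher became 3 with TMM factors, scaling without abundant classes or resolution 0.4, 2 with median-of-ratios factors, 1 without percentile limits, and 0 after subtraction. In neutrophils with platelet genes the 1 higher became 2 when thinned, with no anchors and as the mean over cells, and the 2 lower became 0 at 200 UMIs. When thinned, the higher became 0 in the MHC class II-high cluster and 2 in CD8 T and in gamma-delta and innate-like T cells, and the lower 1 in NK, CD8 T and B cells. Lower became 0 in immature neutrophils without percentile limits, with no anchors or at 200 UMIs, and 0 in classical monocytes and 1 in gamma-delta and innate-like T cells at 200 UMIs. Higher became 0 without percentile limits and 1 with no anchors in dendritic cells. With doublets removed, higher became 0 in NK cells and 2, with lower 0, in gamma-delta and innate-like T cells, and lower 1 in B cells. After subtraction, higher became 0 in NK and CD8 T cells and lower 1 in CD8 T cells. Of list genes in neutrophils, other Krüppel-like factors past the fold went from 0 to 1 and nonclassical monocyte markers from 2 to 4 with TMM factors, and at 200 UMIs glucocorticoid genes went from 2 to 1 and T cell markers from 2 to 0. Of 27 like genes 14 were shared with the mean of the libraries.

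No paired analysis was possible because each genotype has 1 library, and leaving out a replicate was not possible for the same reason. The subtraction was chosen after seeing the data.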

Other observations

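Basophils were not compared because the APP/PS1 library held 43 of them. Klf4 had 32 UMIs there in WT (87.1 CPM) and 1 UMI in APP/PS1, and Nr4a1 stood at 351 and 225 CPM. Zfp36 had a positive ratio in the 4 myeloid types of the monocyte and dendritic lineages, where neutrophil RNA would give between 2.51% and 13.3% of its level. Of 17 immediate early genes 13 had a promoter window, of which 9 held TGACG, 1 (Egr2) a CArG box and 2 (Atf3 and Jun) a MEF2 box. Over all promoters 17.8% held TGACG, 1.47% a CArG box and 1.69% a MEF2 box. Of 14 other Krüppel-like factors 10 had a window, of which 4 held TGACG, 1 (Klf8) a CArG box and 0 a MEF2 box.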
